A study of Mus musculus with 6 samples.

Results

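Lysosome and proton pump genes were compared between microglia of the lupus-prone mouse strain MRL/lpr and of the control strain MRL/mpj. A total of 37 genes were taken by name from the 55401 genes of the count table, with the cathepsins left out. They were 5 genes for lysosomal membrane proteins and progranulin, 6 V0 and 8 V1 subunits of the proton pump, 2 pump accessory proteins, 7 glycosidases, 6 genes of lipid breakdown and transport, and 3 regulators. Each strain had 3 RNA-seq libraries from brains of untreated mice aged 6 weeks. Both strains share the MRL background, and only MRL/lpr also has lpr, a mutation in the death receptor gene Fas. Brains were digested and spun on Percoll, and cells with the myeloid surface protein CD11b were then held back on magnetic columns. As many mice per strain as libraries are given for this comparison, but the labels tie no library to an animal, so p-values measure the spread between these libraries.

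Lysosomes are the acidic organelles in which microglia digest what they engulf. Their acidity comes from the V-ATPase, a rotary pump whose cytosolic V1 sector splits ATP and whose membrane V0 sector carries the protons. Glycosidases and lipases in the lumen break down glycans and lipids, the NPC proteins pass cholesterol out, and the transcription factors TFEB and TFE3 switch on many of these genes.

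Total counts were between 45481609 and 49846634 per library. Mitochondrial genes held 3.06% to 3.49% of the counts in MRL/lpr and 5.84% to 6.38% in MRL/mpj. In MRL/lpr replicate 3 the gene CT010467.1 held 6.38% of the counts, against 0.169% to 0.457% elsewhere, and that library was also the highest for some members. In MRL/lpr replicate 2 the microglial gene Cx3cr1 had 132706 counts, against 10334 to 29349 in the other libraries. Fas had 282 to 461 counts in MRL/lpr and 362 to 432 in MRL/mpj, so its gene counts gave no check of the strain labels. Xist, the RNA of the inactive X chromosome, had 8886 to 11319 counts in MRL/lpr and 27 to 38 in MRL/mpj, whereas the Y-linked gene Ddx3y had 3690 to 7559 counts in all 6 libraries. The methods describe female mice, and strain cannot be told apart from this difference in sex-linked transcripts. The 8 microglial markers summed to 14899 to 17920 CPM (a library's counts set to a common total after TMM scaling) in MRL/lpr and to 16235 to 16705 in MRL/mpj. Of these 8, 1 was lower and none was higher. The MRL/lpr libraries lay entirely below the MRL/mpj libraries for 3 of 8 (P2ry12, Sall1 and Gpr34), beside 19.4% of all genes tested. Csf1r alone held 9341 to 12351 CPM of each sum, so the sums say little about the other markers.

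Most lysosome and pump genes differed little between the strains. Of the 37 genes, 36 passed the filter on low counts, and Atp6v0d2 did not. Gla and Lipa rose in MRL/lpr, while Cd63, Glb1, Gusb, Npc1, Atp6v1b2, Hexa, Atp6v1g1 and Npc2 fell (adjusted p under 0.05, edgeR). These 10 of 36 genes were 27.8%, beside 20.2% of all 19554 genes tested. The 8 that fell were 22.2%, beside 9.06% of all genes, and the 2 that rose were 5.56%, beside 11.1%. The median log2 fold change was -0.05 over the 36 genes and -0.01 over all genes tested. Only Cd63 also passed the absolute log2 fold change of 1 that the study's methods set, and it fell. Of all genes 8.34% passed it, 3.66% lower and 4.67% higher. The 3 libraries of one strain lay entirely above or below the other strain's for 17 of the 36 genes (47.2%), beside 39% of all genes tested. The MRL/lpr libraries were the lower in 14 of the 36 genes, beside 19.4% of all genes, and the higher in 3 of the 36, beside 19.6%. When libraries were scaled by total counts alone, the median of all genes moved by -0.12 and 13 members fell, so small differences are read relative to the TMM scale throughout.

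**Figure D1:**
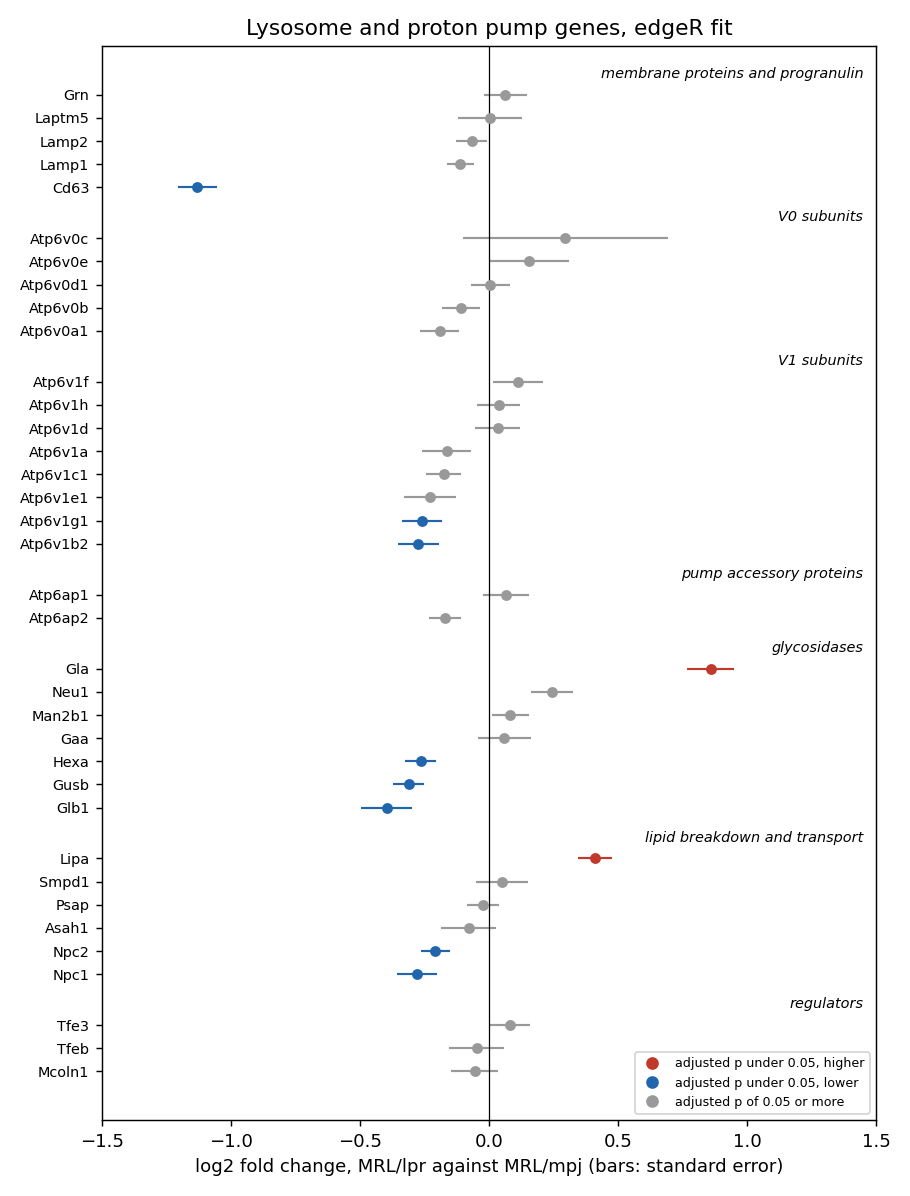
Log2 fold change of each tested member, MRL/lpr against MRL/mpj, with the standard error as a bar, grouped by role (n = 3 libraries per strain). Cd63 lies at -1.13 and Gla at 0.86, and most other members lie close to 0.

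Some members hold in their promoters the element that TFEB and TFE3 bind, and it is shown for that reason. The 7-letter motif TCACGTG, read on either strand, holds the E-box core CACGTG. RefSeq promoters (GRCm38.p6, 250 bases before to 50 after the start) were at hand for 30 of the 37 genes. The motif stood in 9 of these 30 (30.0%), in 4.29% of all 27025 promoters and in 6.42% of the promoters of genes tested here. In the other lysosome genes described below it stood in 16 of 70 promoters (22.9%). The 9 genes were Lamp1, Atp6v0b, Atp6v0d1, Atp6v0e, Atp6v1a, Gaa, Gla, Glb1 and Mcoln1. Of the 30 members with a promoter at hand 7 were called, and of all genes tested 20.2% were. Among the 9 with the motif 2 were called, Gla, which rose, and Glb1, which fell. The sites of these 2 genes and the 4 sites of Lamp1 are printed 5′ to 3′ on the strand of the gene, with the motif in capitals. Where it reads the same on both strands, 8 letters are in capitals.
Gla, chrX:134601183-134601243, minus strand: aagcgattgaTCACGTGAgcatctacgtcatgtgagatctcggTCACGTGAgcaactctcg
Glb1, chr9:114401019-114401045, plus strand: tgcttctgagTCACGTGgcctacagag
Lamp1, chr8:13159089-13159161, plus strand: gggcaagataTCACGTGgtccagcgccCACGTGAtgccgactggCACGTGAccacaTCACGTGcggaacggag
In Gla the sites began 228 and 195 bases upstream of the RefSeq start, and in Glb1 49 bases upstream. In Lamp1 they began 62, 45, 28 and 16 bases upstream. The 2 called genes with the motif thus moved in opposite directions.

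Among the membrane proteins, Cd63, a tetraspanin of late endosomes, lysosomes and exosomes, showed the largest change of any member. It was at 70.2, 64.9 and 61.8 CPM in the MRL/lpr libraries and at 148, 139 and 145 CPM in the MRL/mpj libraries. Every MRL/lpr library was thus far below every MRL/mpj library, and the spread within a strain was small beside the gap. The level fell by 54.3% (log2 fold change -1.13, SE 0.08, adjusted p = 9.09e-06). Cd63 lies on chr10:128900989-128912822 (GRCm38) and has a processed pseudogene, Cd63-ps, with 98.0% identity over 858 aligned bases. Cd63-ps had 45 to 439 counts per library, and with these added to Cd63 the log2 fold change was -1.10.

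Markers of some other brain cells were lower in MRL/lpr, as Cd63 was. All 4 choroid plexus markers were lower in MRL/lpr, with a summed level of 345 to 358 CPM against 1032 to 1115 CPM. The 4 oligodendrocyte markers summed to 56.6 to 67.8 CPM in MRL/lpr and 98.8 to 122 CPM in MRL/mpj, with 2 of 4 lower and Mog at 0 in 1 MRL/lpr library. The 4 neuronal markers summed to 7.40 to 8.66 CPM and 19.2 to 19.3 CPM, with 2 of 4 lower and Rbfox3 at 0 in 1 MRL/lpr library. The sums of the astrocyte markers overlapped, at 38.7 to 43.2 CPM against 35.5 to 40.3 CPM, with none of 4 called. Taken singly, 3 of 4 did not overlap (beside 39% of all genes), with Gfap and Aldh1l1 higher and Slc1a2 lower in MRL/lpr. The 4 endothelial markers summed to 1233 to 1391 CPM in MRL/lpr against 1107 to 1152 CPM, and only Flt1 was called higher (log2 fold change 0.36). Kdr (0.11) was not called, and Cldn5 (-0.04) and Pecam1 (-0.0003) overlapped between strains. The part of these cells in the lower members was not tested, and fewer cells of a type cannot be told apart from less RNA per cell.

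The other membrane proteins did not pass the test. Lamp1 and Lamp2 are the main glycoproteins of the lysosomal membrane. Lamp1 was at 747, 771 and 759 CPM in MRL/lpr and at 829, 816 and 815 CPM in MRL/mpj, without overlap but with an adjusted p of 0.181 (log2 fold change -0.11). Lamp2 overlapped, at 465 to 488 CPM against 471 to 512 CPM. Laptm5, a lysosomal membrane protein of blood cells, was at 2883, 2732 and 3896 CPM in MRL/lpr and at 3226, 3112 and 3143 CPM in MRL/mpj. The high value came from MRL/lpr replicate 3, and without that library Laptm5 was lower in MRL/lpr (log2 fold change -0.17, adjusted p = 0.0076). Grn, the precursor of the granulins, was also highest in that library, at 683, 680 and 830 CPM in MRL/lpr against 722, 699 and 680 CPM in MRL/mpj.

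Of the V1 subunits, 2 of 8 fell (beside 9.06% of all genes) and none rose (beside 11.1%), and 1 of the 2 is uncertain for the reason given below. For 5 of 8 the MRL/lpr libraries lay entirely below the MRL/mpj libraries (19.4% of all genes tested), with a median log2 fold change of -0.17 across the group. These 5 include Atp6v1g1, whose libraries overlapped once the pseudogene counts described below were added, and Atp6v1a, whose gap was narrow. The median takes Atp6v1g1 without those counts. Atp6v1b2, the B subunit of the ATP-splitting ring, was at 90.8, 83.1 and 76.9 CPM in MRL/lpr and at 104, 99.5 and 100 CPM in MRL/mpj. The difference was small (log2 fold change -0.27, SE 0.08, adjusted p = 0.0387), although no library of one strain reached the other. The call of Atp6v1b2 held in 2 of the 6 fits that left out a library. Atp6v1a, the A subunit that holds the catalytic site, was at 95.6, 99.1 and 78.2 CPM against 102, 99.2 and 105 CPM. Its libraries did not overlap either, but the gap was narrow and the adjusted p was 0.284 (log2 fold change -0.16).

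Atp6v1c1, a stalk subunit whose binding couples V1 to V0, was at 103, 109 and 99.3 CPM in MRL/lpr and at 116, 118 and 118 CPM in MRL/mpj (log2 fold change -0.18, adjusted p = 0.104). Atp6v1e1, a peripheral stalk subunit, was at 55.5, 47.7 and 61.6 CPM against 65.4, 64.6 and 63.1 CPM (log2 fold change -0.23, adjusted p = 0.152). Both lay below MRL/mpj in every library, and without MRL/lpr replicate 3 Atp6v1e1 passed the test (log2 fold change -0.31, adjusted p = 0.0268). The remaining V1 genes Atp6v1d, Atp6v1f and Atp6v1h overlapped between strains, with log2 fold changes of 0.03, 0.11 and 0.04 that turned negative when libraries were scaled by total counts.

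The call of Atp6v1g1, another peripheral stalk subunit, depended on a pseudogene. Atp6v1g1 was at 66.8, 71.9 and 64.6 CPM in MRL/lpr and at 82.0, 84.1 and 77.4 CPM in MRL/mpj (log2 fold change -0.26, SE 0.08, adjusted p = 0.0427). The processed pseudogene Gm13453 on chromosome 2 is 99.4% identical to an Atp6v1g1 transcript over 357 aligned bases. It moved the other way, with 617, 725 and 568 counts in MRL/lpr and 106, 125 and 82 counts in MRL/mpj (log2 fold change 2.78, adjusted p = 1.58e-05). With the pseudogene counts added, Atp6v1g1 was at 81.8 ± 4.87 CPM in MRL/lpr and 83.2 ± 3.88 CPM in MRL/mpj (SD, n = 3), and the difference was no longer called (log2 fold change -0.02, adjusted p = 0.874). Gene counts alone do not tell from which copy the reads came, so the fall of Atp6v1g1 is uncertain.

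None of the 5 tested V0 subunits was called, beside 20.2% of all genes tested. Atp6v0a1, an isoform of the large a subunit, was at 115, 116 and 133 CPM in MRL/lpr and at 137, 140 and 139 CPM in MRL/mpj, the only V0 gene whose libraries did not overlap (log2 fold change -0.19, adjusted p = 0.113). Without MRL/lpr replicate 3, which held the highest MRL/lpr value, it fell (log2 fold change -0.26, adjusted p = 0.00575). Atp6v0b, Atp6v0d1 and Atp6v0e overlapped between strains, with log2 fold changes of -0.11, 0.00 and 0.16.

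Atp6v0c, the subunit repeated around the proton-carrying ring, varied the most among the tested members. It had 13220, 11726 and 6388 counts in MRL/lpr and 14314, 7237 and 6945 counts in MRL/mpj. Values near the top and near the bottom of this range occurred in both strains, and the log2 fold change was 0.30 with an SE of 0.40. Atp6v0c was the only one of the 36 tested members whose highest count exceeded the lowest by more than 1.5 times within a strain, which held for 13.4% of the 6996 genes with a mean of at least 1000 counts. Its pseudogene Atp6v0c-ps2, 99.8% identical over 465 aligned bases, had 2822 to 4147 counts in each library, and the summed log2 fold change was 0.25 (SE 0.26). Atp6v0d2, the d subunit isoform known from osteoclasts, had 4 to 12 counts per library and was not tested.

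The accessory proteins Atp6ap1 and Atp6ap2, which take part in pump assembly, did not pass the test. Atp6ap2 was at 171, 178 and 164 CPM in MRL/lpr and at 195, 192 and 191 CPM in MRL/mpj, without overlap (log2 fold change -0.17, adjusted p = 0.0839). Atp6ap1 overlapped, with a log2 fold change of 0.07. Summed over the 16 pump genes, the level was 1451 to 1540 CPM in MRL/lpr and 1472 to 1653 CPM in MRL/mpj, so the sums overlapped.

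Levels per length, as the deposited FPKM values, set the order of the pump genes. In MRL/mpj the V1 order was Atp6v1g1 (66.5 ± 2.79 FPKM, SD, n = 3), Atp6v1f (43.1 ± 3.77), Atp6v1c1 (19.5 ± 0.188), Atp6v1b2 (17.7 ± 0.376), Atp6v1a (15.7 ± 0.425), Atp6v1e1 (14.6 ± 0.261), Atp6v1d (7.99 ± 0.337) and Atp6v1h (3.84 ± 0.161), and the libraries of no neighbouring pair overlapped. The order was the same in MRL/lpr, but there the libraries of Atp6v1c1 and Atp6v1b2, of Atp6v1b2 and Atp6v1a, and of Atp6v1a and Atp6v1e1 overlapped. Among the V0 members Atp6v0b (59.2 ± 4.09 FPKM in MRL/mpj) and Atp6v0c (51.0 ± 22.1) overlapped at the top. The a subunit isoform Tcirg1, which is not a member, stood above both in MRL/mpj (102 ± 4.58 FPKM). FPKM values were not TMM-scaled, so they serve for the order of genes and not for the strain comparison.

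**Figure D2:**
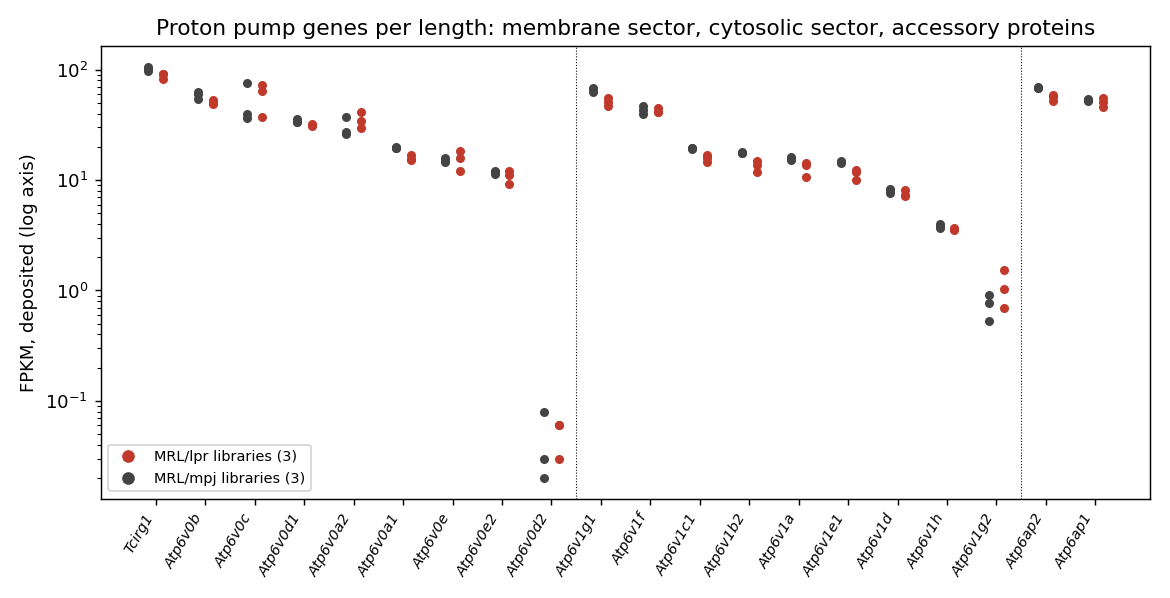
Deposited FPKM of the pump genes in each library on a log axis, members together with the isoforms of the same subunits, with dotted lines between the V0, V1 and accessory genes. In MRL/mpj the V1 members run from Atp6v1g1 at 66.5 down to Atp6v1h at 3.84, and Atp6v0c has the widest spread among the members at the top of V0.

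Where a subunit has several isoform genes, the share of each was taken from FPKM. Tcirg1, the a3 isoform known from osteoclasts, held 64.6%, 61.6% and 64.0% of the a subunit in MRL/lpr and 68.2%, 65.3% and 68.5% in MRL/mpj. Atp6v0a2 held 24.4%, 27.9% and 23.0% against 18.2%, 22.6% and 18.3%. The member Atp6v0a1 held the smallest of these shares, 10.9%, 10.5% and 12.9% in MRL/lpr and 13.6%, 12.1% and 13.2% in MRL/mpj. The shares of Tcirg1 and Atp6v0a2 did not overlap between strains. Nor did those of Atp6v0e beside Atp6v0e2 (57.1% to 60.4% for Atp6v0e in MRL/lpr, 56.3% to 56.8% in MRL/mpj). The Atp6v1g1 share beside Atp6v1g2 was 97.3% to 98.5% in MRL/lpr and 98.7% to 99.2% in MRL/mpj, also without overlap. Reads counted to the pseudogene Gm13453 are left out of this share, so its separation is uncertain, like the fall of Atp6v1g1. For each share that did not overlap, the exact permutation p (two-sided) was 0.1, the smallest that 10 splits of 3 against 3 can give. Lack of overlap fixes this p, so it adds no support to the separation. For the other subunits the member was the main gene, with at least 99.8% of the d subunit for Atp6v0d1 and at least 97.3% of the G subunit for Atp6v1g1, except that Atp6v0e held 56.3% to 60.4% beside Atp6v0e2.

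The glycosidases held the largest rise and 3 of the 8 falls. Of 7 genes, 1 rose (beside 11.1% of all genes), 3 fell (beside 9.06%) and 3 did not pass the test, and the libraries of 5 did not overlap between strains (beside 39%). Gla, alpha-galactosidase A, which removes galactose from glycolipids and is deficient in Fabry disease, was at 126, 129 and 106 CPM in MRL/lpr and at 63.4, 69.3 and 66.5 CPM in MRL/mpj. All MRL/lpr libraries were well above all MRL/mpj libraries, a rise of 81.3% (log2 fold change 0.86, SE 0.09, adjusted p = 0.000163).

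Gla lies on the X chromosome (chrX:134588149-134601125, GRCm38), where Xist differed between the strains. Of the 5 tested members on X, Lamp2, Atp6ap1, Atp6ap2 and Tfe3 were not called, and their log2 fold changes ran from -0.17 to 0.08. The median log2 fold change was -0.10 over all 621 tested X genes and -0.01 over 18859 autosomal genes. T and NK cell markers rose in the same direction as Gla, 5 of 5 with a summed level of 12.1 to 15.2 CPM in MRL/lpr and 1.87 to 2.65 CPM in MRL/mpj, where Cd3e was at 0 in replicate 2. B and plasma cell markers summed to 21.9 to 22.9 CPM and 6.18 to 6.34 CPM, with 1 of 5 called higher and Ms4a1 at 0 in MRL/mpj replicate 1. Neutrophil markers summed to 299 to 330 CPM in MRL/lpr and 239 to 279 CPM in MRL/mpj, with 2 of 4 called higher. Monocyte markers summed to 61.7 to 69.7 CPM and 75.3 to 81.7 CPM, with 1 of 4 called higher and 1 lower. The sums of the border macrophage markers overlapped, at 47.2 to 49.5 CPM against 45.9 to 54.0 CPM, with 1 of 5 called lower. Taken singly, 2 of 5 did not overlap (beside 39% of all genes), with Cd163 higher and Mrc1 lower in MRL/lpr. The part of the X chromosome or of any of these cells in the rise of Gla was not tested.

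Glb1, the lysosomal beta-galactosidase, fell in contrast. It was at 45.9, 45.2 and 54.2 CPM in MRL/lpr and at 67.7, 64.2 and 59.4 CPM in MRL/mpj (log2 fold change -0.40, SE 0.10, adjusted p = 0.0183). MRL/lpr replicate 3 lay closest to the MRL/mpj range, without reaching it. The call of Glb1 held in 2 of the 6 fits that left out a library. Glb1 shares 165 exon bases with Tmppe on the same strand, and Tmppe had 297 to 554 counts per library.

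Gusb, the beta-glucuronidase, was at 215, 215 and 226 CPM in MRL/lpr and at 278, 267 and 269 CPM in MRL/mpj (log2 fold change -0.31, SE 0.06, adjusted p = 0.00492). Hexa, the alpha subunit of beta-hexosaminidase, was at 599, 616 and 654 CPM against 767, 746 and 733 CPM (log2 fold change -0.27, SE 0.06, adjusted p = 0.0111). The strains were fully apart for both. With a library left out, the call of Gusb held in all 6 fits and that of Hexa in 3 of 6. Hexa shares 255 exon bases with Tmem202 on the opposite strand, which had at most 24 counts per library.

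Neu1, a sialidase, was higher in every MRL/lpr library, at 111, 102 and 93.0 CPM against 86.8, 88.6 and 83.1 CPM, but missed the threshold (log2 fold change 0.24, adjusted p = 0.0679). Without MRL/lpr replicate 3 it passed (log2 fold change 0.31, adjusted p = 0.00868). Gaa, the acid alpha-glucosidase that digests glycogen, and Man2b1, the lysosomal alpha-mannosidase, overlapped between strains with log2 fold changes of 0.06 and 0.08, which turned negative under scaling by total counts.

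**Figure D3:**
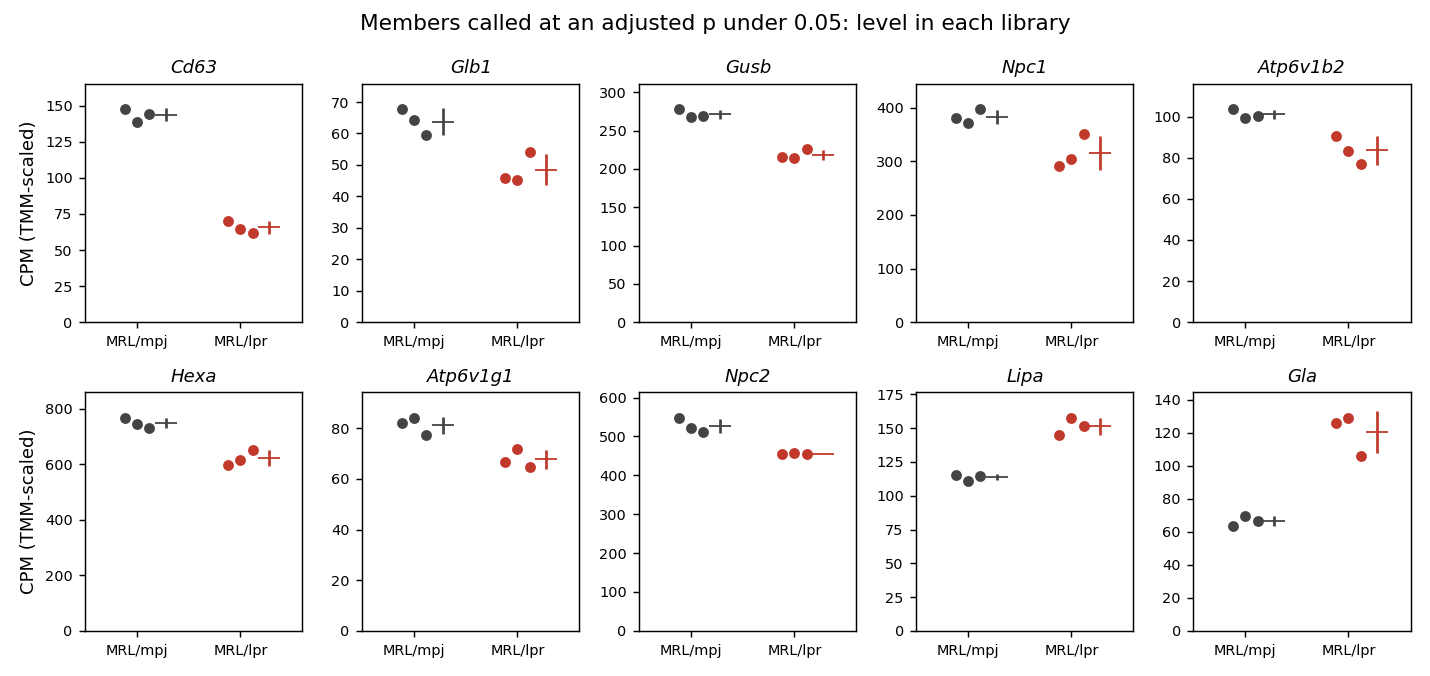
CPM of the 10 members with an adjusted p under 0.05 in each library, with the mean and SD of each strain as a cross (n = 3) on axes that start at 0. The strains do not overlap in any panel, and the gap is widest for Cd63 and Gla.

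Genes of lipid breakdown and transport moved in both directions, with 1 of 6 higher (beside 11.1% of all genes) and 2 of 6 lower (beside 9.06%). Lipa, the acid lipase that frees cholesterol and fatty acids from esters, was at 145, 158 and 152 CPM in MRL/lpr and at 115, 111 and 115 CPM in MRL/mpj. The rise was 33.0% (log2 fold change 0.41, SE 0.07, adjusted p = 0.00193). The RNA for the proteins that move the freed cholesterol out of the lysosome went the other way. Npc1, which exports it through the membrane, was at 291, 305 and 352 CPM in MRL/lpr and at 381, 372 and 397 CPM in MRL/mpj (log2 fold change -0.28, SE 0.08, adjusted p = 0.034). Npc2, which carries it in the lumen, was at 455, 458 and 455 CPM against 547, 521 and 511 CPM (log2 fold change -0.21, SE 0.06, adjusted p = 0.0285). None of these 3 genes overlapped between strains. The calls of Npc1 and of Npc2 each held in only 1 of the 6 fits that left out a library, and that of Lipa in all 6. Npc1 shares 511 exon bases with Rmc1 on the opposite strand, which had 903 to 1395 counts per library.

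Psap, the precursor of the saposins that present lipids to the hydrolases, was the most abundant member per length, at 1480 ± 50.2 FPKM in MRL/mpj. Its CPM overlapped between strains, at 4153 to 4570 against 4221 to 4520 (log2 fold change -0.02, adjusted p = 0.848). Psap and Laptm5 together held 48.5% to 52.5% of all counts of the members. The acid ceramidase Asah1 and the acid sphingomyelinase Smpd1 also overlapped, with log2 fold changes of -0.08 and 0.05.

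The 3 regulators overlapped between strains and none was called. Of all genes tested, 39% did not overlap and 20.2% were called, so most genes were like these 3. Tfeb, which encodes the transcription factor named above, was at 47.6, 47.6 and 50.8 CPM in MRL/lpr and at 54.1, 54.1 and 42.6 CPM in MRL/mpj (log2 fold change -0.05, adjusted p = 0.814). Its relative Tfe3 had a log2 fold change of 0.08 (adjusted p = 0.537), negative under scaling by total counts. Mcoln1, the calcium channel of the lysosomal membrane that acts on TFEB, had one of -0.06 (adjusted p = 0.742).

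The 10 calls differed in how well they held. Cd63, Gla, Gusb and Lipa were called under each of 17 other settings, among them DESeq2, other scalings and each library left out in turn. The other calls were lost in at least 3 of the 6 fits that left out a library, with Hexa called in 3 of 6, Atp6v1b2 and Glb1 in 2 and Npc1, Npc2 and Atp6v1g1 in 1. The number of members that fell was thus 2 to 10, with 3, 4 and 10 without MRL/lpr replicate 1, 2 and 3 and 2, 2 and 4 without MRL/mpj replicate 1, 2 and 3. The direction of all 10 was the same in every fit.

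**Figure D4:**
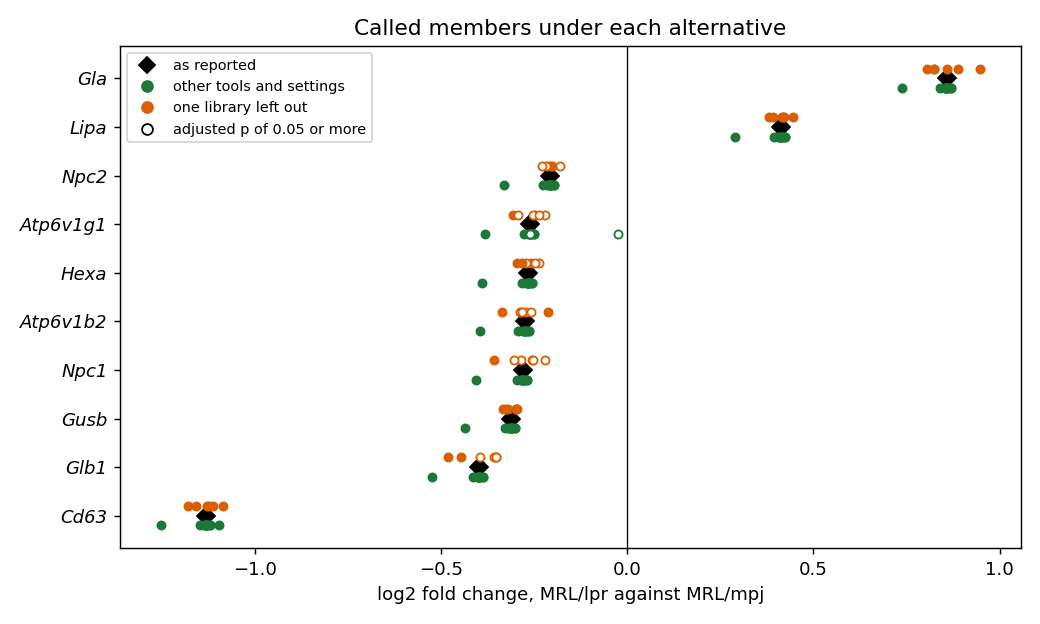
Log2 fold change of each called member, MRL/lpr against MRL/mpj, as reported and under other settings, with open circles where the adjusted p was 0.05 or more. The points stay on one side of 0 for each gene, and the open point of Atp6v1g1 near 0 is the value with pseudogene counts added.

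For the wider pathway, 86 other lysosome genes were taken, of which 81 were tested. Of these, 7 rose and 9 fell, 19.8% in all against 20.2% of all genes tested, and their median log2 fold change was -0.05. Arsb, an arylsulfatase that acts on glycosaminoglycans, fell the most, from 2369, 2328 and 2377 CPM in MRL/mpj to 1063, 1074 and 1012 CPM in MRL/lpr (log2 fold change -1.17, SE 0.05, adjusted p = 1.27e-06). It was the only one of the 81 past an absolute log2 fold change of 1 and the threshold.

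Lower in MRL/lpr were also Aga (log2 fold change -0.53), an amidase of glycoprotein breakdown, the membrane protein Tmem106b (-0.48), the transcription factor Mitf (-0.47), a relative of TFEB, and the acid nuclease Dnase2a (-0.37). Higher were Galc (0.51), which removes galactose from galactosylceramide, the sulfatase Arsa (0.50), the sialomucin Cd164 (0.43), and the nutrient-sensing genes Fnip1 (0.39), Mtor (0.30) and Rraga (0.28). Calls of 4 of these genes were less stable, with Rraga lost in 10 of the 17 other settings (DESeq2 among them), Mtor in 6, Dnase2a in 4 and Fnip1 in 3. Leaving out MRL/mpj replicate 2 ended the call of each of the 4. By role, the hydrolases and cofactors had 3 of 30 higher and 6 lower, and the membrane proteins and transporters 1 of 23 tested higher and 2 lower. Nutrient sensing and transcription had 3 of 16 higher and 1 lower, and enzyme sorting none of 7 called. Over all genes tested, the shares were 11.1% higher and 9.06% lower. None of the 5 tested pump isoforms was called. Among them Atp6v0a2 had a log2 fold change of 0.33 (adjusted p = 0.186), and without MRL/mpj replicate 2 it passed the test at 0.51 (adjusted p = 0.0266). The log2 fold change was -0.10 for Tcirg1 (adjusted p = 0.311), 0.66 for Atp6v1g2 (0.217), -0.15 for Atp6v0a4 (0.94) and 0.01 for Atp6v0e2 (0.963).

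Per length, the tested members stood high among all genes. Their median was 33.1 FPKM in MRL/mpj and 31.0 FPKM in MRL/lpr, against 2.41 FPKM in MRL/mpj over all genes tested. The median member stood at percentile 94.4 of the tested genes, and the lowest, Atp6v1h, at percentile 59.2. Together the 37 genes held 1.39% to 1.48% of the counts in MRL/lpr and 1.56% to 1.64% in MRL/mpj, with mitochondrial genes included in the total. On the TMM scale the sums overlapped, at 14188 to 16122 CPM in MRL/lpr and 14941 to 15782 CPM in MRL/mpj.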

How the data were processed

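The authors deposited raw gene counts for all 6 libraries and FPKM values for each library, which they computed from counts, length and depth. The submitters' processing notes name cutadapt 1.9.3, HISAT2 2.0.4, Cufflinks, Cuffdiff 2.2.1 and GRCm38. The counting tool and its use of strand are not given in the sources used here. The labels describe rRNA-depleted libraries and the methods purified mRNA. Symbols came from GENCODE M21, which matched 55141 of 55401 identifiers.

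Counts were filtered with filterByExpr (minimum count 10, minimum total 15), scaled by TMM and tested with edgeR 4.0.16 (robust quasi-likelihood, no covariate, Benjamini-Hochberg over 19554 genes) in R 4.3.3. A gene was called at an adjusted p under 0.05. FPKM served for levels only. Pseudogene copies were found by alignment of transcripts (at least 90% identity over 200 bases), chosen after seeing the data. Members and lists were chosen with earlier results of these data known. The steps were tested on simulated data. Alternatives were DESeq2 1.42.0, other scalings, filters and dispersions, counts divided by 4, since 1 read pair appears to be worth 4 counts, a replicate block and leaving out each library. All members are named. Of other lysosome genes, the rule names the 6 highest and the 6 lowest called and the tested pump isoforms. A gene that this rule covers is not reported here. Atp6v0d2, with at most 12 counts in a library, was too shallow to test.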

Additional observations from a re-analysis of the deposited data

How the results depend on the processing

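Members that fell were 8 as reported, 13 with scaling by library size only, 4 with the replicate block and 2 to 10 with one library left out, where members that rose were 2 to 3. With library size only, the members' median log2 fold change was -0.17, 3 other lysosome genes rose and 20 fell, and 2790 of all genes fell. With one library left out, the median was -0.065 to 0.0044, other lysosome genes that rose were 3 to 8 and that fell 7 to 14, and all genes that fell 1177 to 1971. In the median FPKM of members in MRL/mpj, 33.1 became 35.6 as CPM per kilobase of exons. Replicate numbers did not pair the samples (correlations of -0.04, -0.02 and -0.03 between same-numbered libraries), and the block ended the calls of Atp6v1b2, Atp6v1g1, Glb1 and Npc2. The block brought the isoform Atp6v0a2 past the threshold (0.34, adjusted p = 0.028). Atp6v1g1 was also not called without the low-count filter or without robust dispersions (adjusted p 0.0517 and 0.0518). The cause of these changes was not tested.

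Signs turned for some genes that were not called. With library size only it became -0.13 (Laptm5), -0.065 (Grn), -0.12 (Atp6v0d1), -0.090 (Atp6v1d), -0.013 (Atp6v1f), -0.088 (Atp6v1h), -0.061 (Atp6ap1), -0.068 (Gaa), -0.044 (Man2b1), -0.078 (Smpd1), -0.042 (Tfe3) and, for the isoform Atp6v0e2, -0.11. DESeq2 gave -0.0033 for Laptm5 and -0.0022 for Atp6v0d1, upper-quartile scaling -0.013 for both and -0.0049 for Atp6v0e2, and the block -0.014 for Laptm5. With one library left out the ranges were -0.17 to 0.10 (Laptm5), -0.035 to 0.11 (Grn), -0.029 to 0.030 (Atp6v0d1), -0.017 to 0.32 (Atp6v0e), -0.0050 to 0.074 (Atp6v1d), -0.025 to 0.14 (Atp6ap1), -0.068 to 0.13 (Gaa), -0.065 to 0.0022 (Psap), -0.17 to 0.0099 (Asah1), -0.058 to 0.11 (Smpd1), -0.16 to 0.0072 (Tfeb), -0.12 to 0.0092 (Mcoln1), and for the isoforms -0.63 to 0.48 (Atp6v0a4) and -0.11 to 0.13 (Atp6v0e2).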
